A study of Mus musculus with 10 samples.

Results

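RNA of 10 synaptotagmin genes was measured by polyA RNA sequencing in cortical neurons cultured from wild-type mouse embryos. The genes, Syt1, Syt2, Syt3, Syt4, Syt5, Syt6, Syt7, Syt11, Syt13 and Syt17, were taken by symbol from the deposited table of normalised counts. They are 10 of the 48526 genes in the raw count table, and all 10 passed the filter on low counts. The neurons came from C57BL/6J embryos of day 16.5, and every culture had received AraC, which kills dividing cells, at 0.5 µM after 3 to 4 days in culture. Every culture was also infected with a lentivirus. In the group H2BE+BDNF the virus carried H2BE, a variant of histone H2B, under a promoter that is always active, and BDNF was added. The group H2BE received the same virus and no BDNF. The group BDNF received a control virus and BDNF, and the group Control the control virus alone. RNA was taken 24 h after BDNF. The promoter of the virus is not restricted to neurons, and the labels do not say which cells of a culture were infected, whether the libraries of a group came from separate cultures, or the dose of BDNF.

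Synaptotagmins are proteins with a pair of C2 domains that bind membrane lipids and SNARE proteins, and most are anchored in the membrane of a vesicle or of the cell surface. In several of them the C2 domains bind calcium, so that a rise of calcium at the axon terminal is turned into the fusion of a synaptic vesicle. Others do not bind calcium in the usual way and act on dense-core vesicles, on membrane uptake or on traffic between organelles. BDNF, the ligand of the receptor TrkB, is itself carried in dense-core vesicles.

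The depth was 5058074 to 14142545 counts per library. Replicate 3 of Control held no more counts than replicate 1 at any gene (0 of 48526 genes higher) and reached 73.7% of its total. Replicate 3 of BDNF likewise held no more than replicate 1 at any gene (0 genes higher) and reached 61.9% of its total. Each was therefore averaged with replicate 1 as 1 sample, which leaves n = 2 distinct samples in every group. Levels are CPM, in which counts are expressed relative to the TMM-scaled total of the library. The p-values rest on the spread between these libraries alone, which may be technical. H2bc21, the gene of H2BE, had 32.1 and 35.2 CPM in H2BE+BDNF against 3.89 and 4.10 in BDNF samples, and 42.7 and 35.7 CPM in H2BE against 5.34 and 5.23 in Control samples. It rose with the H2BE virus in both settings (log2 fold change 3.11, edgeR adjusted p = 1.51e-08 with BDNF, and 2.92, edgeR adjusted p = 3.96e-08 without). Arc, an immediate-early gene, rose with BDNF (log2 fold change 3.97, SE 0.22, edgeR adjusted p = 2.26e-09 with the control virus). BDNF replicates 1 and 2 differed more than the distinct libraries of any other group, with a chi-squared per degree of freedom of 5.10, against 1.69 to 1.85 in the other groups.

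Promoter sequences of the RefSeq annotation (GRCm38.p6) were held for 5 of the 10 genes, Syt1, Syt2, Syt3, Syt6 and Syt11, in 9 windows of 250 bases upstream of a transcript start. One window is shown for each of the 3 among them whose RNA was called in a comparison with BDNF. Syt11 fell with BDNF under both viruses, Syt1 fell with BDNF under the H2BE virus, and Syt6 rose with BDNF under the control virus. The windows lie at chr3:88772600-88772849 (minus strand) for Syt11, chr10:109010976-109011225 (minus strand) for Syt1 and chr3:103575032-103575281 (plus strand) for Syt6. Capitals mark the GC box GGGCGG on either strand, a letter pattern bound by Sp1-type factors.
Syt11: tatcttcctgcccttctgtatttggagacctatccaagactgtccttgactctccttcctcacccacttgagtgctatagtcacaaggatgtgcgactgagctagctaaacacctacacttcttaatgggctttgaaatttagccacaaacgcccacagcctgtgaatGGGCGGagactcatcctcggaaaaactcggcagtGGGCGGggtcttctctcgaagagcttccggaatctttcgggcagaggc
Syt1: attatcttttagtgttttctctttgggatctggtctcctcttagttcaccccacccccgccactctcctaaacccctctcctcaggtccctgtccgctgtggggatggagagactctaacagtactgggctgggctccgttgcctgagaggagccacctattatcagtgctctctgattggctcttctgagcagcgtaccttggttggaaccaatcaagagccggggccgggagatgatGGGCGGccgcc
Syt6: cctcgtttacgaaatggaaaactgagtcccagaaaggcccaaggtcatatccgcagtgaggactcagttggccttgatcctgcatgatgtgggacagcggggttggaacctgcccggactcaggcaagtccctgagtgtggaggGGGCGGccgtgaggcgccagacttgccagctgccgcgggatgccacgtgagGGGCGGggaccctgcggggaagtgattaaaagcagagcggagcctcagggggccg
In the windows shown, positions are counted from the transcript start at which each window ends. The GC box began at -82 and -48 for Syt11, at -11 for Syt1, and at -106 and -55 for Syt6. The Syt11 window lies inside the gene, whose outermost start is at position 88775164. The other Syt1 window (chr10:109009112-109009361) and the Syt3 window did not hold the GC box. The Syt2 windows and the other Syt6 windows held it. Of the latter, chr3:103574995-103575244 overlaps the window shown. The same letters were in 32.7% of 32851 windows of this length upstream of mouse transcripts. Neither the cyclic AMP response element TGACGTCA, in 1.55% of all windows, nor the early growth response site GCGGGGGCG, in 2.57%, was in any of the 9 windows. Both strands were searched, and none of these patterns contains another. Also searched were the AP-1 site TGANTCA (N is any base), in 6.75% of all windows, and TGACG, a part of TGACGTCA, in 17.8%. Each was found in a Syt2 window and in no window of the other genes.

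The synaptotagmins were present at very different levels. Per kilobase of exons, the scale on which genes can be compared, Syt11 stood at 147 ± 1.6 CPM per kilobase in Control neurons (SD, n = 2) and Syt1 at 132 ± 4.1. Syt5 followed at 103 ± 4.0 CPM per kilobase and Syt4 at 97.8 ± 1.2. Syt7 stood at 37.0 ± 0.20, Syt3 at 16.8 ± 0.16 and Syt13 at 12.7 ± 0.36 CPM per kilobase. The lowest were Syt17 at 3.86 ± 0.15, Syt6 at 2.95 ± 0.39 and Syt2 at 0.322 ± 0.093 CPM per kilobase. No neighbours in this order overlapped in Control. The order of Syt11 and Syt1 depended on the length used: by the length of the longest transcript Syt1 had 228 and Syt11 152 CPM per kilobase in Control.

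With BDNF the order per kilobase of exons was headed by Syt4. Its level was 237 ± 8.0 CPM per kilobase in H2BE+BDNF and 255 ± 44 in BDNF neurons, above every other synaptotagmin in every sample of both groups. In H2BE neurons Syt4 was in the fourth place at 89.7 ± 7.8 CPM per kilobase, and its samples overlapped those of Syt5 just above it. The fourth place was also that of Syt4 in Control. Other neighbours that overlapped were Syt3 and Syt13 in H2BE+BDNF and Syt1 and Syt11 in BDNF neurons. Syt17 and Syt6 held the eighth and ninth places in H2BE and Control, and stood the other way round in H2BE+BDNF and BDNF. The lead of Syt4 over Syt1 depended on the scale. By the length of the longest transcript Syt4 had 224 and 286 CPM per kilobase in BDNF samples. Syt1 had 214 and 241 there, so the samples of these genes overlapped. By CPM without a length, the mean of Syt1 was above that of Syt4 in both groups with BDNF.

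**Figure D1:**
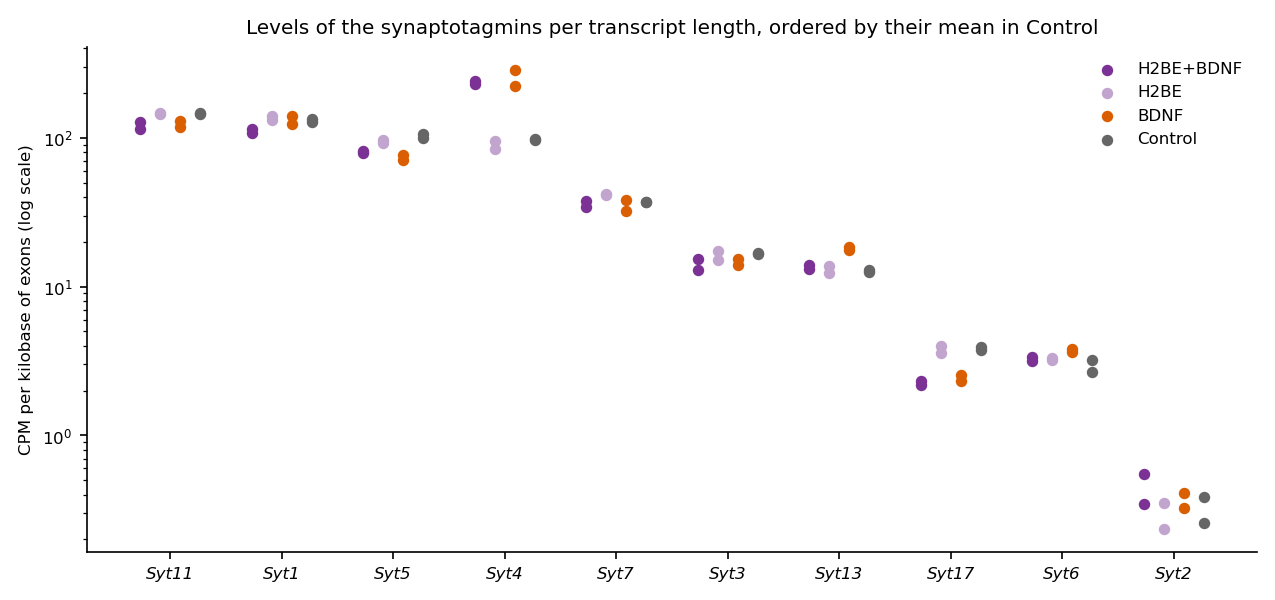
Level of each synaptotagmin in CPM per kilobase of exons (vertical axis, log scale), with genes ordered by their mean in Control and 1 point per sample, 2 samples in each of 4 groups. Syt4 lies between 224 and 286 CPM per kilobase in the samples with BDNF and between 84.2 and 98.6 in those without, and Syt2 is below 0.55 in all of them.

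BDNF changed 6 of the 10 synaptotagmins in neurons with the control virus and 6 of 10 in neurons with the H2BE virus. Syt4 rose under both viruses, and Syt5, Syt11 and Syt17 fell under both. Syt6 and Syt13 passed the test as rises only under the control virus, and Syt1 and Syt7 as falls only under the H2BE virus. Syt2 and Syt3 passed in neither. The responses to BDNF under the 2 viruses were also compared with each other, and for no synaptotagmin did that difference pass the test. A gene was called at a Benjamini-Hochberg adjusted p under 0.05 of edgeR's quasi-likelihood F test over 13452 genes. Of the synaptotagmins 1 rose and 5 fell in H2BE+BDNF against H2BE, where the test called 25.8% of all genes, 13.4% up and 12.3% down. In BDNF against Control 3 rose and 3 fell, and 31.4% of all genes were called, 16.8% up and 14.6% down. The synaptotagmins are thus read against a response that is itself broad. The median log2 fold change of the 10 genes was -0.22 in H2BE+BDNF against H2BE (all genes -0.000071) and -0.06 in BDNF against Control (all genes -0.0098). Their median absolute log2 fold change was 0.25 with the H2BE virus (all genes 0.22) and 0.30 with the control virus (all genes 0.22). These are bulk samples, in which fewer cells of a type and less RNA per cell cannot be told apart.

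**Figure D2:**
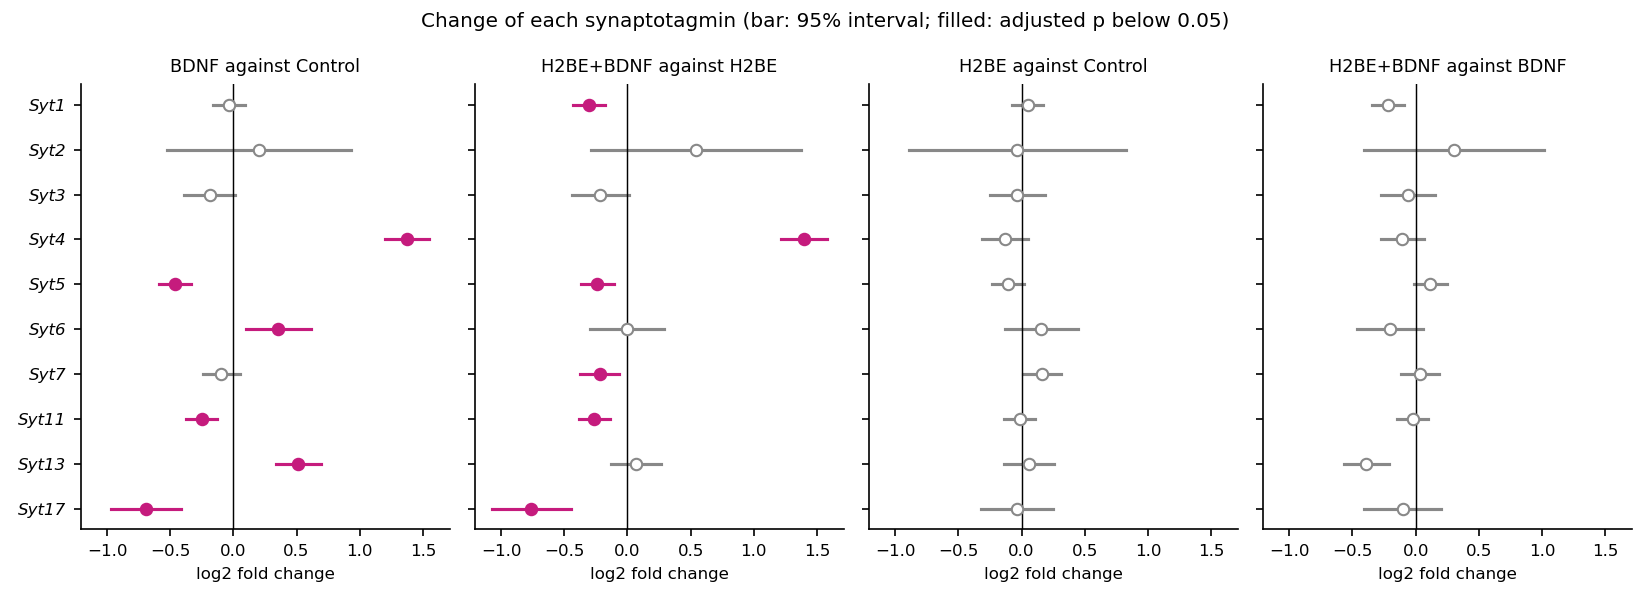
Log2 fold change of each synaptotagmin (horizontal axis, bars are 95% intervals) in 4 comparisons, each given in its panel title as the first group against the second. Filled points have an adjusted p under 0.05: 6 genes in each of the comparisons of BDNF and none in the comparisons of the viruses.

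Syt4 and Syt11 form a class of their own, in which a residue that other synaptotagmins use to bind calcium in the first C2 domain is replaced. Syt4 (ENSMUSG00000024261, chromosome 18, 31437808 to 31447406, minus strand) sits on dense-core vesicles and has been studied as a regulator of neuropeptide and BDNF release. Its RNA stood at 944 and 899.6 CPM in H2BE+BDNF and at 328 and 370.3 CPM in H2BE samples. Under the control virus it was 873 and 1113 CPM in BDNF and 384 and 377 CPM in Control samples. Every sample with BDNF lay above every sample without it, by a wide gap, and the samples with BDNF overlapped between the viruses. The rise was 2.64-fold in H2BE+BDNF against H2BE (log2 fold change 1.40, SE 0.085, edgeR adjusted p = 1.32e-08). In BDNF against Control it was 2.60-fold (1.38, SE 0.083, edgeR adjusted p = 6.39e-09). The difference between these responses was 0.02 on the log2 scale (95% interval -0.23 to 0.27, edgeR adjusted p = 0.947).

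Syt4 made up 30.4% and 29.6% of the summed CPM of the 10 synaptotagmins in H2BE+BDNF and 11.4% and 12.5% in H2BE samples. Under the control virus its share was 27.8% and 31.7% in BDNF and 13.3% and 12.9% in Control samples. The sum itself was 3103 and 3043 CPM in H2BE+BDNF, 2875 and 2973 in H2BE, 3138 and 3516 in BDNF and 2880 and 2929 in Control samples. The sum was higher in every sample with BDNF than in any without. CPM sums weight long transcripts more. Summed per kilobase of exons, Syt4 made up 38.8% and 37.6% in H2BE+BDNF and 15.7% and 17.2% in H2BE samples. By that measure its share was 36.2% and 40.95% in BDNF and 17.9% and 17.5% in Control samples.

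The genes whose pattern over the 8 distinct libraries was most like that of Syt4 were found among 10697 genes with a level of at least 5 CPM. They were Scg2, which encodes the dense-core vesicle protein secretogranin II (Pearson r = 0.998), Eprs1, a transfer RNA synthetase (0.997), Adamts1, an extracellular protease (0.997), Lancl3 (0.996) and Pdlim5, a protein of the actin cytoskeleton (0.996). Scg2 had log2 fold changes of 1.25 in H2BE+BDNF against H2BE and 1.16 in BDNF against Control, close in size to those of Syt4. Eprs1 moved less, at 0.51 in H2BE+BDNF against H2BE and 0.50 in BDNF against Control. Lancl3 moved more, at 2.47 in H2BE+BDNF against H2BE and 2.49 in BDNF against Control. The libraries fall into those with and without BDNF, so a high r across them describes that shared step and not a finer likeness.

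Syt11 (ENSMUSG00000068923, chromosome 3, 88744700 to 88775164, minus strand), the closest relative of Syt4, restrains the uptake of membrane at nerve endings and is a substrate of the ubiquitin ligase parkin. It moved the other way from Syt4. Its RNA stood at 602 and 663 CPM in H2BE+BDNF and at 762 and 749 CPM in H2BE samples. In neurons with the control virus it was 612 and 679 CPM in BDNF and 759 and 771 CPM in Control samples. Both samples with BDNF were below both without it under each virus. The fall was to 0.834 of the H2BE level in H2BE+BDNF (log2 fold change -0.26, SE 0.058, edgeR adjusted p = 3.27e-03). It was to 0.841 of the Control level in BDNF (-0.25, SE 0.057, edgeR adjusted p = 3.29e-03). The call in H2BE+BDNF against H2BE was lost without H2BE+BDNF replicate 2 (log2 fold change -0.19, edgeR adjusted p = 0.0665).

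**Figure D3:**
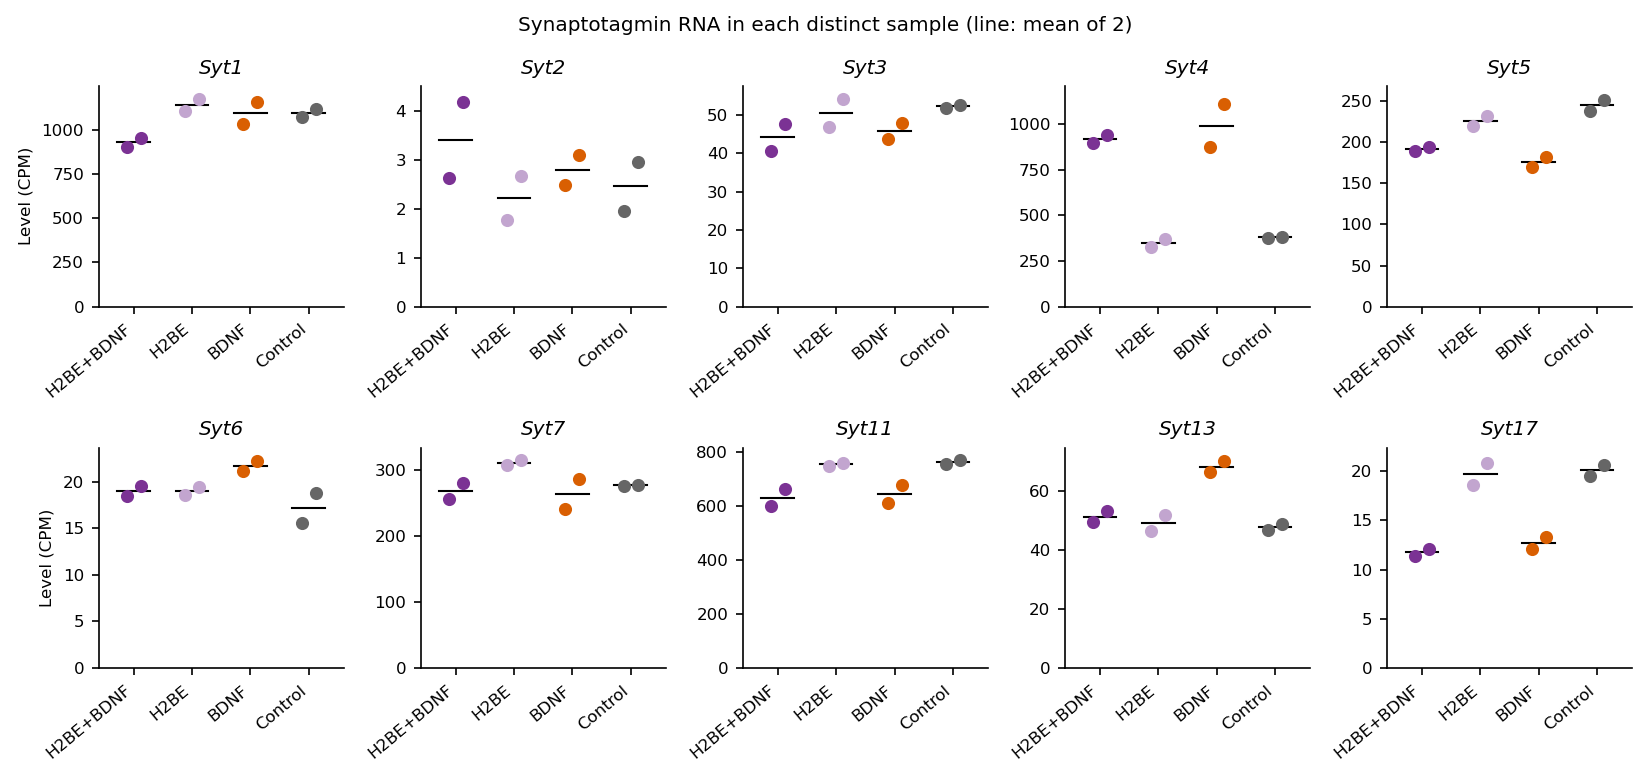
Level of each synaptotagmin in CPM (vertical axes from 0, a scale per gene) in every distinct sample, with H2BE+BDNF, H2BE, BDNF and Control from left to right and a line at the mean of 2 samples. Syt4 is high in both groups with BDNF, Syt5, Syt11 and Syt17 are low there, and Syt13 is high in BDNF alone.

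Syt1, Syt2 and Syt5 bind calcium through both C2 domains and are close in sequence. Syt1 (ENSMUSG00000035864, chromosome 10, 108497650 to 109010982, minus strand) is the calcium sensor for the fast, synchronous release of transmitter in the forebrain. It had 955 and 903 CPM in H2BE+BDNF and 1108 and 1176 CPM in H2BE samples. It had 1032 and 1161 CPM in BDNF and 1073 and 1121 CPM in Control samples. Only H2BE+BDNF stood apart: its samples were below all others, and the remaining groups overlapped. Syt1 fell in H2BE+BDNF against H2BE, to 0.811 of its level there (log2 fold change -0.30, SE 0.059, edgeR adjusted p = 1.36e-03). In BDNF against Control the log2 fold change was -0.03 (95% interval -0.16 to 0.09, edgeR adjusted p = 0.702). The difference between the responses was -0.27 (95% interval -0.45 to -0.09), with an adjusted p of 0.128 in edgeR and 0.0341 in DESeq2.

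Syt2 (ENSMUSG00000026452, chromosome 1, 134646677 to 134762593, plus strand) takes the role of Syt1 in the brainstem and in some inhibitory neurons. It was the lowest of the 10 and rested on 9 to 38 counts per distinct library. The samples had 2.63 and 4.19 CPM in H2BE+BDNF, 2.68 and 1.78 in H2BE, 2.50 and 3.12 in BDNF and 1.96 and 2.96 in Control. All groups overlapped with their neighbours in order of level. The log2 fold changes were 0.54 in H2BE+BDNF against H2BE (95% interval -0.29 to 1.37, edgeR adjusted p = 0.341) and 0.20 in BDNF against Control (-0.53 to 0.93, edgeR adjusted p = 0.693), so that changes well over the size of those of Syt1 or Syt11 were not detectable at this depth.

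Syt5 (ENSMUSG00000004961, chromosome 7, 4539765 to 4547541, minus strand) is found on dense-core and other secretory vesicles. Its RNA was at 194 and 189.7 CPM in H2BE+BDNF and at 220.2 and 232 CPM in H2BE samples. With the control virus it was at 182 and 170.3 CPM in BDNF and at 252 and 238 CPM in Control samples. The 4 groups did not overlap at all: Control was highest, followed by H2BE, H2BE+BDNF and BDNF. Syt5 fell in H2BE+BDNF against H2BE (log2 fold change -0.24, SE 0.062, edgeR adjusted p = 9.40e-03) and in BDNF against Control (-0.46, SE 0.059, edgeR adjusted p = 2.12e-05). The fall was smaller under the H2BE virus by 0.22 on the log2 scale (95% interval 0.04 to 0.41), which did not pass the adjustment (edgeR adjusted p = 0.209). Without H2BE replicate 3 or H2BE+BDNF replicate 3 the call under the H2BE virus was lost, with edgeR adjusted p values of 0.0836 and 0.0715.

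Syt3, Syt6 and Syt7 are classed among the synaptotagmins with a high affinity for calcium. Syt7 (ENSMUSG00000024743, chromosome 19, 10389090 to 10453180, plus strand) is the sensor for asynchronous release and for synaptic facilitation. It had 281 and 256 CPM in H2BE+BDNF and 315 and 308 CPM in H2BE samples. The samples had 287 and 242 CPM in BDNF and 276 and 278 CPM in Control. H2BE lay above all other groups, which overlapped each other. Syt7 fell in H2BE+BDNF against H2BE (log2 fold change -0.22, SE 0.072, edgeR adjusted p = 0.0349), to 0.859 of its level. In BDNF against Control the log2 fold change was -0.09 (95% interval -0.24 to 0.05, edgeR adjusted p = 0.329). The fall with the H2BE virus was no longer called in 5 of 17 alternative analyses, among them those without H2BE replicate 2 (edgeR adjusted p = 0.162), H2BE replicate 3 (0.0852) or H2BE+BDNF replicate 3 (0.256). Without BDNF replicate 1, BDNF against Control was called as well (log2 fold change -0.22, edgeR adjusted p = 0.0103).

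Syt3 (ENSMUSG00000030731, chromosome 7, 44384102 to 44400187, plus strand) acts at the cell surface and takes part in the removal of glutamate receptors from synapses. Its RNA was at 40.7 and 47.6 CPM in H2BE+BDNF, 54.1 and 47.0 in H2BE, 47.9 and 43.8 in BDNF and 51.9 and 52.7 CPM in Control samples. BDNF lay below Control in both samples, while H2BE+BDNF and H2BE overlapped. Neither comparison was called, at log2 fold changes of -0.22 in H2BE+BDNF against H2BE (95% interval -0.44 to 0.01, edgeR adjusted p = 0.156) and -0.19 in BDNF against Control (-0.39 to 0.01, edgeR adjusted p = 0.151).

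Syt6 (ENSMUSG00000027849, chromosome 3, 103575231 to 103645569, plus strand) is a relative of Syt3 that is known from the fusion of the sperm acrosome. It had 19.5 and 18.5 CPM in H2BE+BDNF and 18.6 and 19.4 CPM in H2BE samples. Under the control virus it had 22.2 and 21.2 CPM in BDNF and 15.6 and 18.8 CPM in Control samples. Only BDNF stood above the other groups. Syt6 rose 1.28-fold in BDNF against Control (log2 fold change 0.36, SE 0.12, edgeR adjusted p = 0.0367). In H2BE+BDNF against H2BE the log2 fold change was -0.0019 (95% interval -0.30 to 0.29, edgeR adjusted p = 0.995). The rise was the least stable of the calls, lost in 11 of 17 alternative analyses, at log2 fold changes of 0.21 to 0.45 over all 17. It was lost without Control replicate 1 (log2 fold change 0.21, edgeR adjusted p = 0.444), BDNF replicate 1 (0.103), H2BE replicate 2 (0.0532) or H2BE replicate 3 (0.0510), and DESeq2 gave an adjusted p of 0.252.

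Syt13 and Syt17 are atypical members of the family. Syt13 (ENSMUSG00000027220, chromosome 2, 92915098 to 92956058, plus strand) lacks the residues by which other synaptotagmins bind calcium and is best known from endocrine cells of the pancreas. Its RNA was at 53.0 and 49.4 CPM in H2BE+BDNF and at 46.4 and 51.7 CPM in H2BE samples. With the control virus it was at 66.5 and 69.9 CPM in BDNF and at 46.9 and 48.8 CPM in Control samples. Both BDNF samples were above all 6 others, which overlapped. Syt13 rose 1.43-fold in BDNF against Control (log2 fold change 0.51, SE 0.083, edgeR adjusted p = 2.01e-04). In H2BE+BDNF against H2BE its log2 fold change was 0.07 (95% interval -0.13 to 0.26, edgeR adjusted p = 0.661). The responses differed by -0.45 on the log2 scale (95% interval -0.71 to -0.18), the largest such difference among these 10 genes, with an edgeR adjusted p of 0.0993 and no adjusted p from DESeq2, which filtered the gene out.

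Syt17 (ENSMUSG00000058420, chromosome 7, 118380717 to 118448222, minus strand) has no membrane span, is found at the Golgi and takes part in the growth of axons. It had 12.1 and 11.4 CPM in H2BE+BDNF and 20.9 and 18.6 CPM in H2BE samples. It had 13.3 and 12.1 CPM in BDNF and 20.6 and 19.5 CPM in Control samples. Both groups with BDNF lay below both groups without it. Of the falls among these 10 genes this was the steepest, to 0.590 of the H2BE level in H2BE+BDNF (log2 fold change -0.76, SE 0.15, edgeR adjusted p = 1.25e-03). In BDNF it was to 0.619 of the Control level (-0.69, SE 0.13, edgeR adjusted p = 6.88e-04). The responses differed by -0.07 (95% interval -0.49 to 0.35, edgeR adjusted p = 0.905).

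Without BDNF, no synaptotagmin was called in H2BE against Control by edgeR (0 of 10, against 2.13% of all 13452 genes), nor by DESeq2, which gave an adjusted p to 5 of the 10 and called 6.93% of all genes with one. Syt2, Syt3, Syt6, Syt13 and Syt17 had none. Only Syt7 had an unadjusted p under 0.05, as 18.2% of all genes did, at a log2 fold change of 0.16 (95% interval 0.01 to 0.31, edgeR adjusted p = 0.242). When only the H2BE and Control libraries were fitted, Syt7 was called (0.16, edgeR adjusted p = 0.0426). The other log2 fold changes were between -0.13 for Syt4 and 0.16 for Syt6. For Syt1 the interval was -0.08 to 0.17 and for Syt11 -0.14 to 0.11, which bounds any change of these abundant genes more closely than for Syt2, at -0.89 to 0.82.

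With BDNF present, no synaptotagmin was called in H2BE+BDNF against BDNF by edgeR (0 of 10, against 0.0223% of all genes). Syt1 (log2 fold change -0.22, SE 0.059, edgeR adjusted p = 0.206) and Syt13 (-0.39, SE 0.084, edgeR adjusted p = 0.130) had an unadjusted p under 0.05, as 11.4% of all genes did. Both had lower values in each H2BE+BDNF sample than in each BDNF sample. The groups did not overlap for Syt5, Syt6 and Syt17 either, whose unadjusted p was above 0.05. Such separation of 2 samples from 2 therefore does not mark a change by itself. DESeq2 called Syt1 (adjusted p = 0.0494) and 0.633% of all genes with an adjusted p. It gave none to Syt2, Syt3, Syt6, Syt13 and Syt17, which it could therefore not call. The count was 1 to 2 in some alternatives that kept all samples, with no filter on low counts for instance (Syt1, edgeR adjusted p = 4.49e-04, and Syt13, 8.29e-03). It was 3 without BDNF replicate 1, where 764 of all genes were called: Syt1 (-0.31, edgeR adjusted p = 8.55e-04), Syt4 (-0.26, edgeR adjusted p = 8.23e-03) and Syt13 (-0.44, edgeR adjusted p = 5.99e-03) were called lower in H2BE+BDNF than in BDNF, with the lone BDNF sample assumed to vary like the other groups.

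The difference between the BDNF responses, that under the H2BE virus minus that under the control virus, was called for 0 of 10 synaptotagmins by edgeR, against 1.15% of all genes. Syt1, Syt5 and Syt13 had an unadjusted p under 0.05, as 16.7% of all genes did. DESeq2 called Syt1 and 5.48% of all genes with an adjusted p, which Syt2, Syt3, Syt6, Syt13 and Syt17 did not have. Without BDNF replicate 1, where 897 of all genes were called in place of 155, these 3 were called, Syt1 at -0.36 (edgeR adjusted p = 3.07e-03), Syt5 at 0.29 (0.0390) and Syt13 at -0.49 (0.0228). A gene called under one virus and not under the other, as Syt1, Syt6, Syt7 and Syt13 were, is therefore not shown to respond differently under the viruses.

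The other proteins of vesicle fusion were followed in a list of 44 genes, of which 39 passed the filter on low counts. Stx4, Vamp7, Esyt3, Sytl3 and Sytl4 did not. In H2BE+BDNF against H2BE 6 of the 39 rose and 14 fell, with a median log2 fold change of -0.09, where 13.4% of all genes rose and 12.3% fell. In BDNF against Control 12 rose and 10 fell, with a median of -0.01, where 16.8% of all genes rose and 14.6% fell. The counts of the smaller groups below are to be read against the same shares. The genes grouped as vesicle membrane proteins, which include the synapsins, accounted for many of the falls: 8 of 10 fell and 0 rose in H2BE+BDNF against H2BE, and 5 fell and 0 rose in BDNF against Control. Genes of clamping and priming, the steps that hold a docked vesicle ready, had 3 rises and 2 falls among 10 with the H2BE virus and 6 rises and 2 falls with the control virus. Of 12 genes for SNAREs, the proteins that drive fusion, and for their handling, 2 fell and 0 rose with the H2BE virus, and 3 fell and 2 rose with the control virus. Genes for other proteins with C2 domains had 3 rises and 2 falls among 7 with the H2BE virus, and 4 rises and 0 falls with the control virus.

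Syn2, a synapsin that ties vesicles into clusters, had 149.6 and 161 CPM in H2BE+BDNF and 259 and 243 CPM in H2BE samples. It had 166 and 171 CPM in BDNF and 261 and 247 CPM in Control samples, and fell in H2BE+BDNF against H2BE (log2 fold change -0.70, edgeR adjusted p = 6.50e-07) and in BDNF against Control (-0.60, edgeR adjusted p = 1.27e-06). Sv2b, a vesicle glycoprotein of the SV2 family, was at 128 and 120.1 CPM in H2BE+BDNF and at 244 and 249 CPM in H2BE samples. With the control virus it was at 125 and 95.2 CPM in BDNF and at 207 and 220 CPM in Control samples. RNA of both genes was thus lower in every sample with BDNF than in any without. Sv2b had a log2 fold change of -0.99 in H2BE+BDNF against H2BE (edgeR adjusted p = 1.47e-06) and of -0.97 in BDNF against Control (edgeR adjusted p = 7.58e-07).

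Synpr, the vesicle protein synaptoporin, fell in H2BE+BDNF against H2BE (20.6 and 21.7 CPM in H2BE+BDNF against 43.4 and 55.9 in H2BE, log2 fold change -1.23, edgeR adjusted p = 1.41e-05). Cplx2, a complexin that clamps the SNARE complex until Syt1 binds calcium, fell as well (339.5 and 347 CPM in H2BE+BDNF against 476 and 472 in H2BE, log2 fold change -0.47, edgeR adjusted p = 1.17e-05). Doc2b, a protein with a pair of C2 domains that supports spontaneous and asynchronous release, rose in BDNF against Control (66.0 and 69.0 CPM in BDNF against 31.6 and 30.2 in Control, log2 fold change 1.10, edgeR adjusted p = 4.89e-07). Unc13a, the priming protein Munc13-1, rose too (600.4 and 573 CPM in BDNF against 408 and 439.8 in Control, log2 fold change 0.44, edgeR adjusted p = 6.56e-06). The groups did not overlap in these 4 comparisons, which adds no support, since the genes were named for their small p. Under the other virus 3 of these genes were called in the same direction: in BDNF against Control Synpr fell by 1.09 on the log2 scale (edgeR adjusted p = 8.06e-06) and Cplx2 by 0.33 (1.99e-04), and in H2BE+BDNF against H2BE Doc2b rose by 0.78 (6.23e-05). Unc13a was not called in H2BE+BDNF against H2BE (log2 fold change 0.07, edgeR adjusted p = 0.370).

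**Figure D4:**
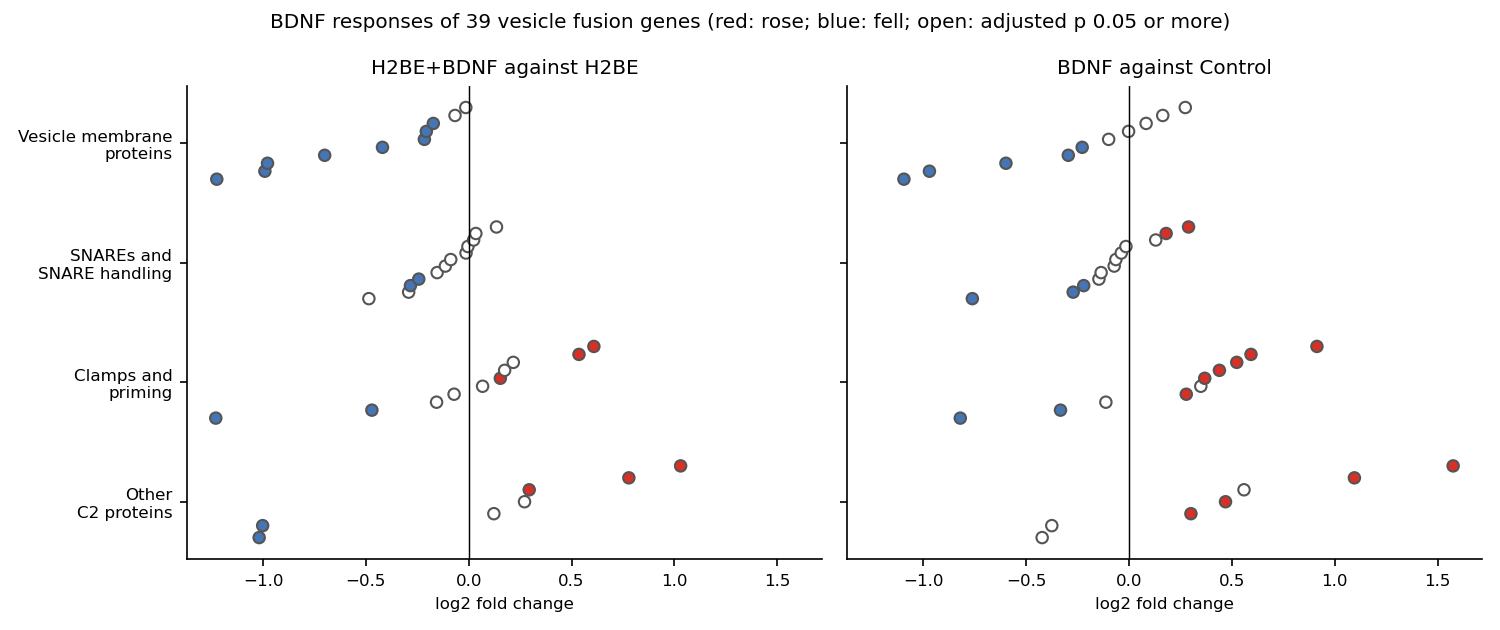
Log2 fold change (horizontal axis) of 39 genes of vesicle fusion in 4 groups of function, in H2BE+BDNF against H2BE at left and BDNF against Control at right, 1 point per gene, spread vertically for legibility. Blue points fell, red points rose and open points had an adjusted p of 0.05 or more. No filled point of the vesicle membrane proteins lies to the right of 0 in either panel.

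In H2BE against Control, where 2.13% of all genes were called, 3 of the 39 genes rose and 0 fell: Cplx2 (log2 fold change 0.30, edgeR adjusted p = 0.0136), Unc13a (0.28, 0.0136) and the synapsin Syn3 (0.53, 0.0393). That count was 0 without Control replicate 1, H2BE replicate 2 or H2BE replicate 3, 1 without Control replicate 2, and 6 without BDNF replicate 1 or BDNF replicate 2, where 890 and 888 of all genes were called in place of 287. In H2BE+BDNF against BDNF edgeR called 0 of 39, with 7 at an unadjusted p under 0.05, as 11.4% of all genes were. DESeq2 called 0 of the 23 to which it gave an adjusted p. Without BDNF replicate 1, where 764 of all genes were called, edgeR called 9. For BDNF in neurons with the H2BE virus, DESeq2 called 3 up and 12 down, and 2226 of all genes in place of 3466. With only the groups compared edgeR called 6 up and 18 down, and 4223 of all genes. Fewer of the 39 were called when an H2BE or H2BE+BDNF library was left out, which leaves 1 sample in that group.

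Markers of the cells in the cultures were measured beside these genes. All 4 neuronal markers were detected in every group, and their summed level was 4180 to 4258 CPM in H2BE+BDNF, 3967 to 4016 in H2BE, 4246 to 4304 in BDNF and 3724 to 3779 in Control. Within that sum Map2, of dendrites, rose with BDNF, and Rbfox3, of neuronal nuclei, and Tubb3, a neuronal tubulin, fell, under both viruses. The 5 markers of excitatory neurons summed to 676 to 715 CPM in H2BE+BDNF, 705 to 754 in H2BE, 631 to 642 in BDNF and 638 to 653 in Control, with 2 rises and 3 falls under the H2BE virus and 2 rises and 2 falls under the control virus. The 7 markers of interneurons summed to 1709 to 1772 CPM in H2BE+BDNF, 1763 to 1854 in H2BE, 1985 to 2167 in BDNF and 2014 to 2122 in Control, and Pvalb among them was at 0 in H2BE+BDNF and Control. Of the 6 tested, 2 rose and 3 fell with BDNF under the H2BE virus, and 1 rose and 1 fell under the control virus. Sst among them also fell in H2BE against Control (log2 fold change -0.40, edgeR adjusted p = 8.28e-03).

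The sums of non-neuronal markers were far smaller, and several moved with BDNF. The 5 progenitor markers summed to 229 to 235 CPM in H2BE+BDNF, 95.01 to 97.7 in H2BE, 222 to 239 in BDNF and 106.5 to 106.6 in Control, with 2 called up under the H2BE virus and 4 under the control virus. Most of that sum was Vim, with means of 183 CPM in H2BE+BDNF, 57.1 in H2BE, 174 in BDNF and 63.6 in Control. Vim and Mki67 were called by edgeR under both viruses, and Sox2 and Nes only under the control virus. Of these DESeq2 called Vim alone. Its adjusted p was 0.185 for Mki67 with the H2BE virus. With the control virus it was 0.146 for Mki67, 0.141 for Sox2 and 0.0505 for Nes. Mki67 was low, at 0.396 to 0.423 CPM in H2BE and 0.349 to 0.611 CPM in Control samples. Pax6 was not called (log2 fold change 0.04 with the H2BE virus and -0.61 with the control virus). The 6 oligodendrocyte markers summed to 75.1 to 79.7 CPM in H2BE+BDNF, 39.8 to 44.3 in H2BE, 65.2 to 78.0 in BDNF and 35.2 to 39.7 in Control, with Mbp the only one called with BDNF. The 5 microglial markers summed to 20.5 to 22.0 CPM in H2BE+BDNF, 4.76 to 5.22 in H2BE, 19.6 to 22.1 in BDNF and 6.10 to 7.32 in Control, and 3 of them were too low to be tested. Most of that sum was Cd68, with means of 18.6 CPM in H2BE+BDNF, 3.52 in H2BE, 17.8 in BDNF and 4.86 in Control. Aif1 was called up by edgeR under the H2BE virus (log2 fold change 2.95) and was not called under the control virus (-0.75). That rise started from 0.141 and 0.198 CPM in H2BE samples. A count of 0 allows up to 0.424 and 0.593 CPM at the depth of these libraries. DESeq2 gave Aif1 no adjusted p in either comparison. The difference between its responses was not called (edgeR adjusted p = 0.109). Astrocyte markers (5) summed to 38.5 to 40.6 CPM in H2BE+BDNF, 46.6 to 49.1 in H2BE, 44.1 to 77.8 in BDNF and 46.9 to 57.3 in Control. With BDNF only Aqp4 among them was called, as a fall under the H2BE virus (edgeR adjusted p = 0.0196, DESeq2 0.0740). The 4 endothelial and mural markers summed to 30.5 to 32.4 CPM in H2BE+BDNF, 22.8 to 24.6 in H2BE, 24.6 to 25.8 in BDNF and 23.5 to 24.0 in Control, with Cldn5 at 0 in all groups but Control. With BDNF only Rgs5 among them was called, as a rise under the H2BE virus (edgeR adjusted p = 0.0110, DESeq2 0.0794). The part of these cells in the changes of the synaptotagmins was not tested.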

How the data were processed

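The authors deposited raw counts per gene, 48526 genes in 10 libraries, and a signal table of normalised counts for 21862 genes, the same counts divided by 1 size factor per library. The submitters' processing notes name the mouse build mm10, SAMtools, DESeq2 and deepTools. Not given in the sources used here are the aligner, the counting tool and whether it used strand, and the authors' annotation. Per the labels' protocols, libraries were made from polyA RNA with the NEBNext Ultra II kit. The normalised table served to choose the members by symbol, and the raw counts gave every value.

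Levels are CPM on TMM-scaled totals. Per-kilobase levels used the union of exons in GENCODE M21. The test was edgeR 4.0.16 (quasi-likelihood F, R 4.3.3) over 13452 genes kept by filterByExpr (minimum count 10, minimum total 15), in 1 fit of the 8 distinct libraries, replicate 3 of Control and BDNF left out, with Benjamini-Hochberg adjustment within each of 5 comparisons and calls under 0.05. Those genes hold 99.8% of counts. A count of 0 allows up to 3 counts, which is 0.212 to 0.593 CPM depending on depth and covers counting error only. DESeq2 1.42.0 was an alternative, beside other scaling, filters, replicates, a replicate block, a correction for length and GC content, and each library left out. The script was tested on simulated data. The members, lists and tests were chosen with earlier results of these data known. Named genes are the 10 members, the 7 other synaptotagmins, up to 4 of the vesicle fusion list per comparison by smallest p, those of the list called in the comparisons of the viruses, and 5 genes most like Syt4.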

Additional observations from a re-analysis of the deposited data

Results flagged for a closer look

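The difference between the BDNF responses passed the test for 2 of the 39 vesicle fusion genes and 1.15% of all genes. For Unc13a it was -0.37 on the log2 scale (SE 0.072, edgeR adjusted p = 0.0339): the response was 0.07 in H2BE+BDNF against H2BE (541 and 540.3 CPM in H2BE+BDNF against 521 and 508 in H2BE) and 0.44 in BDNF against Control. For Sv2c, a vesicle glycoprotein, it was -1.14 (SE 0.26, edgeR adjusted p = 0.0452), with 23.6 and 15.6 CPM in H2BE+BDNF against 36.4 and 42.0 in H2BE, and 31.0 and 40.2 CPM in BDNF against 31.9 and 26.2 in Control. Neither was called once transcript length and GC content were corrected for (Unc13a -0.19, edgeR adjusted p = 0.266; Sv2c -1.03, 0.181). Unc13a was also lost without Control replicate 1 (0.288), H2BE replicate 2 (0.181) or 3 (0.0506), or H2BE+BDNF replicate 2 (0.0897) or 3 (0.118). Sv2c was lost without Control replicate 1 (0.253) or 2 (0.0853), H2BE replicate 2 (0.193) or 3 (0.121), or H2BE+BDNF replicate 3 (0.171). Both genes were examined further after their values were seen.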

How the results depend on the processing

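In 17 alternatives, 9 settings and 8 fits that each leave out a library, BDNF against Control called 5 to 6 synaptotagmins and H2BE+BDNF against H2BE 4 to 6. None of the 12 called changes of the 10 genes changed sign. Syt4 and Syt17 under both viruses, Syt5, Syt11 and Syt13 under the control virus and Syt1 under the H2BE virus were called in all 17. Syt7 under the H2BE virus was also lost with replicate 3 in place of replicate 1 (edgeR adjusted p = 0.0511) and with the length and GC correction (0.0728).

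For H2BE against Control the count of synaptotagmins was 1 with only the groups compared (Syt7) and 0 otherwise. For H2BE+BDNF against BDNF it was 1 with all 10 libraries (Syt13), 1 with DESeq2 (Syt1), 2 with no filter (Syt1, Syt13), 1 with the replicate block (Syt1) and 0 to 3 when a library was left out. For the difference of responses it was 2 with all 10 libraries (Syt1, Syt13), 1 with DESeq2, 1 with no filter and 1 with the replicate block (all Syt1), and 0 to 3 when a library was left out. The cause was not tested. Whether the replicate numbers pair the samples was not settled. Deviations from group means correlated at -0.12 between Control and BDNF and -0.34 between H2BE and H2BE+BDNF, over 2 shared numbers each. With 2 libraries in a group the deviations mirror each other, so each value is a single correlation and cannot decide it.

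By the length of the longest transcript Syt1 and Syt11 exchanged places, to ranks 1 and 2 in H2BE and in Control, and to ranks 2 and 3 in H2BE+BDNF.

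Over all genes, 4225 were called in BDNF against Control (2512 with DESeq2, 6465 with all 10 libraries, 2278 without Control replicate 1) and 3466 in H2BE+BDNF against H2BE (2226 with DESeq2, 1818 without H2BE replicate 2). In H2BE against Control 287 were called (20 with the length and GC correction, 1611 with all 10 libraries, 2 to 890 when a library was left out). In H2BE+BDNF against BDNF 3 were called (1 to 216 by setting, 1 to 764 when a library was left out), and 155 in the difference of responses (5 to 1169 by setting, 0 to 897 when a library was left out). With 2 samples a group, changes of genes as low as Syt2 are not resolved.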

Other observations

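Of the 7 other synaptotagmin genes 5 passed the filter on low counts, and Syt8 and Syt15 did not, at no more than 0.198 CPM in any sample. Syt12, a synaptic vesicle protein that does not bind calcium, had 8.48 and 7.29 CPM in BDNF and 3.28 and 3.14 CPM in Control samples, a rise (log2 fold change 1.21, SE 0.23, edgeR adjusted p = 8.89e-04). With the H2BE virus it had 6.94 and 9.53 CPM in H2BE+BDNF and 6.20 and 4.76 CPM in H2BE samples (log2 fold change 0.54, SE 0.24, edgeR adjusted p = 0.115). Syt10, the calcium sensor for the release of IGF-1 in the mouse olfactory bulb, also rose in BDNF against Control (5.28 and 5.41 CPM in BDNF against 2.28 and 3.31 in Control, log2 fold change 1.003, SE 0.26, edgeR adjusted p = 7.38e-03). In H2BE+BDNF against H2BE its log2 fold change was 0.20 (SE 0.29, edgeR adjusted p = 0.657). The difference between the responses did not pass the test for Syt12 (-0.66, edgeR adjusted p = 0.348) or Syt10 (-0.80, 0.319).

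Syt16 fell under both viruses. It had 71.1 and 72.3 CPM in H2BE+BDNF and 93.7 and 92.7 CPM in H2BE samples, and 67.8 and 67.4 CPM in BDNF and 93.2 and 95.7 CPM in Control samples. The log2 fold changes were -0.39 (SE 0.072, edgeR adjusted p = 8.97e-04) in H2BE+BDNF against H2BE and -0.47 (SE 0.067, edgeR adjusted p = 5.31e-05) in BDNF against Control. Syt9, a fast calcium sensor, had 43.3 and 50.8 CPM in H2BE+BDNF and 54.4 and 53.9 in H2BE samples, against 44.8 and 43.1 CPM in BDNF and 42.9 and 42.4 in Control samples. It was called in no comparison, and its log2 fold change in H2BE against Control was 0.33 (SE 0.094, edgeR adjusted p = 0.0775). Syt14 was called in neither comparison of BDNF, at 0.16 in H2BE+BDNF against H2BE (edgeR adjusted p = 0.256) and 0.22 in BDNF against Control (0.0761).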
